A study of Mus musculus with 12 samples.

Results

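CCL1 given for 8 h at 100 U/ml was compared with no stimulation in BW5147 cells labelled as given no dexamethasone. BW5147 is an established mouse thymic lymphoma line. Total RNA was measured on Affymetrix arrays, 12 in all, and the comparison used 4 of them, chosen by their labels: CCL1 1 and CCL1 2, against unstimulated 1 and unstimulated 2. Arrays were set against each other number by number, and a gene was said to agree where both differences had the same sign and a size of at least 0.5 on the log2 scale, which is 1.41-fold. The other groups, with 2 arrays each, were IL-9 (100 U/ml), Dex+CCL1, Dex+IL-9 and Dex, where Dex stands for dexamethasone, a synthetic glucocorticoid, at 100 ng/ml. The line was bought from a cell collection and all groups shared it and its medium. The labels do not say whether the arrays numbered 1 and 2 came from separate cultures, so the p-values below rest on array-to-array differences that may be purely technical. With 2 arrays against 2, a two-sided exact permutation test could not go below p = 0.333, and the tests below come from limma across all probe sets.

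CCL1 is a chemokine whose receptor in the mouse is CCR8, a membrane receptor that couples to inhibitory G proteins. Such receptors can feed into the RAS-ERK cascade, in which ERK kinases phosphorylate transcription factors and switch on genes for their own inhibitors, among them the phosphatase DUSP6. In thymic lymphoma lines, CCL1 is known as a factor that protects cells from death caused by glucocorticoids.

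Values are MAS5 signals on a linear scale, and differences are log2 of signal + 16, which understates folds of low signals. Of 22626 probe sets 13575 passed a filter on low signals, and they stood for 7511 genes, each by 1 probe set. CCL1 2 was measured on another array type than the other 11 arrays, which include unstimulated 2 and IL-9 2. In the pairs numbered 2, a difference of CCL1 from unstimulated cells or from IL-9 therefore cannot be told apart from one of array type. The number-matched differences of CCL1 disagreed between numbers with an SD of 0.434 over probe sets, against 0.410 for IL-9 over unstimulated cells, 0.492 for Dex+CCL1 over Dex and 0.498 for Dex+IL-9 over Dex. T cell genes were present in the CCL1 and unstimulated arrays, with signals of 597 to 635 for Cd3g and 783 to 1172 for Lat, while Cd2, Cd5 and Cd247 never exceeded 14.4 in any of the 12 arrays. The summed signal of the 11 T cell markers on the array was 5823 and 6275 with CCL1 and 6255 and 5878 without. Markers of B cells, myeloid cells, NK cells and fibroblasts summed to at most 62.7 in any array.

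The arrays numbered 1 differed from those numbered 2 within all 3 groups labelled without Dex. The 13 measured glucocorticoid receptor targets had a centred mean level of 0.0942 in CCL1 1 and 0.197 in unstimulated 1, close to 0.152 in Dex 1 and 0.148 in Dex 2. In CCL1 2 and unstimulated 2 that level was -0.620 and -0.572. Fkbp5, a glucocorticoid-induced chaperone of the receptor, had signals of 637 and 277 in CCL1 1 and 2, and of 767 and 306 in unstimulated 1 and 2. In a contrast of number 1 with number 2 among the arrays without Dex, 8 of the 13 targets passed the test, against 98 of all 7511 genes. Of the 8, Cdkn1a was lower in number 1 (-0.79, limma adjusted p = 0.0257) and the others were higher. Per1, Sgk1, Mt1, Mt2 and Zfp36 did not pass. Over all probe sets 0.810% were called higher in number 1 and 0.368% lower. The level therefore moved with the number and was similar in both members of each number-matched pair, and its part in the differences between CCL1 and unstimulated cells was not tested. In the arrays numbered 1 and labelled without Dex, the mean level of the targets was near that of the arrays labelled with Dex. Whether those cultures met a glucocorticoid or the labels are wrong was not tested. Groups are called without Dex below as they are labelled.

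**Figure D1:**
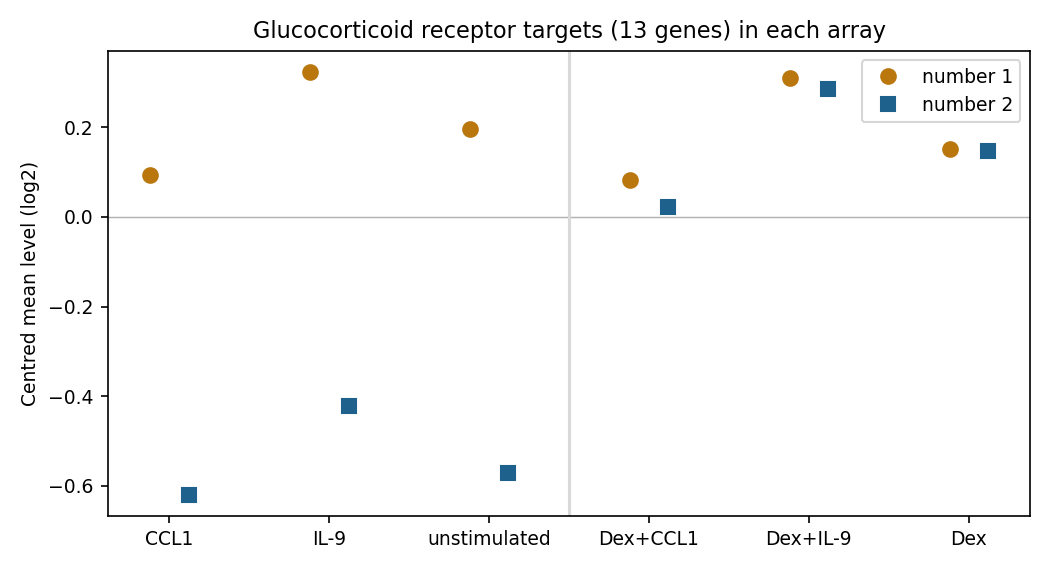
Centred mean log2 level of 13 glucocorticoid receptor targets (vertical axis) in each of the 12 arrays, by group, with circles for number 1 and squares for number 2. CCL1 1 and unstimulated 1 lie at 0.0942 and 0.197, within the range of the arrays given Dex, and CCL1 2 and unstimulated 2 at -0.620 and -0.572.

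Dusp6 was the 1 gene that passed the test between CCL1 and unstimulated cells. It encodes a cytoplasmic phosphatase that inactivates ERK. Its signal was 578 and 716 in CCL1 1 and 2, against 204 and 175 in unstimulated 1 and 2. Both CCL1 arrays lay far above both unstimulated arrays, with means of 647 ± 97.3 and 189 ± 20.5 (SD, n = 2 each). The number-matched differences were 1.44 and 1.94, and their mean was 1.69 (SE 0.16, limma adjusted p = 0.00222). This was 1 of 13575 probe sets called higher (0.00737%), and 0 were called lower (0%). An unadjusted p under 0.05 was reached by 833 probe sets, with 679 expected by chance. The call was lost without unstimulated 2 (1.51, adjusted p = 0.0978) and without CCL1 2 (1.49, adjusted p = 0.123), where the lone array of a group was taken to vary like the others. It was kept without either of the arrays numbered 1. In the pair numbered 2 alone, whose glucocorticoid targets were low, the difference of 1.94 had an adjusted p of 0.153.

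The 4 agreeing genes next to Dusp6 by mean difference did not pass the test. For agreeing genes, groups that stand apart are no separate support, because the rule used the same 4 arrays. Groups did not overlap in 24 of the 27 genes that agreed upwards and in 70 of the 76 that agreed downwards. Over all 7511 genes, both CCL1 arrays lay above both unstimulated arrays in 1132 and below them in 1389. Tuba8, an alpha-tubulin isotype, had signals of 384 and 434 with CCL1 and 115 and 211 without. The arrays did not overlap, and the difference was 1.30 (SE 0.18, limma adjusted p = 0.0784). Tuba8 passed under 6 alternatives (adjusted p of 0.0224 to 0.0483). Abat, the mitochondrial enzyme that degrades the neurotransmitter GABA, had 158 and 149 with CCL1 and 38.7 and 81.5 without. Its groups also stood apart, but its number-matched differences were unequal, 1.67 and 0.76, with a mean of 1.21 (SE 0.24, adjusted p = 0.278). Usp18, an interferon-induced protease that removes ISG15 from proteins and dampens interferon receptor signalling, had 31.1 and 50.1 with CCL1 and 6.13 and 11.9 without. Its 2 differences were alike, 1.09 and 1.25, around a mean of 1.17 (SE 0.20, adjusted p = 0.254), at signals where the log2 scale used here understates folds. Clec4e, a C-type lectin receptor best known from macrophages, had 39.99 and 84.0 with CCL1 and 10.8 and 26.1 without. Its difference was 1.15 (SE 0.19, adjusted p = 0.221), and a second probe set of Clec4e gave 0.30.

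The promoters of these genes are shown because the data place them at the top of the agreeing genes. Of the 5, 3 had an entry in the RefSeq promoter table, on the mouse build GRCm38.p6. Each sequence runs 5′ to 3′ from 250 bases before the transcription start to 50 bases after it. Dusp6 lies at chr10:99262981-99263280 on the plus strand, Tuba8 at chr6:121210484-121210783 on the plus strand and Clec4e at chr6:123289822-123290121 on the minus strand. Capitals mark matches, on either strand, to the ETS core CGGAA, the AP-1 site TGANTCA, the cAMP response element TGACGTCA, the CCAAT box CCAAT or the TATA box TATAAA, none of which overlapped another in these windows.
Dusp6: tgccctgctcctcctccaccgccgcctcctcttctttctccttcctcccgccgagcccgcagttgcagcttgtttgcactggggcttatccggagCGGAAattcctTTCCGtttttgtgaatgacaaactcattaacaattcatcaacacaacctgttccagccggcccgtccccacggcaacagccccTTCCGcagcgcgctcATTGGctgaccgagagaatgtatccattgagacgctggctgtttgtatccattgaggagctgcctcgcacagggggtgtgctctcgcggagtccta
Tuba8: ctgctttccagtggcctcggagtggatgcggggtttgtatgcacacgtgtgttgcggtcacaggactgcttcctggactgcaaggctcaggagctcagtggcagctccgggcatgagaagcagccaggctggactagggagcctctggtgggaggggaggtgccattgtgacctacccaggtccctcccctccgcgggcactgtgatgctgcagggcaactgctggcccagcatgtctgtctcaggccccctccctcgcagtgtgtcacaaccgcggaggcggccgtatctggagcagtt
Clec4e: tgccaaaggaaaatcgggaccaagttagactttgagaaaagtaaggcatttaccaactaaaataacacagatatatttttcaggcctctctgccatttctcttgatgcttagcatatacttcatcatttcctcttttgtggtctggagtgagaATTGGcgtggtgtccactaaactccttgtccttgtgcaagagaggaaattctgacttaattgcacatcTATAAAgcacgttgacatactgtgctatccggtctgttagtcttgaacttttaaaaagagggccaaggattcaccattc
The Dusp6 window held 3 matches to CGGAA and 1 CCAAT box. The Clec4e window held 1 CCAAT box and 1 TATA box, and the Tuba8 window no match to these letters. CGGAA is a narrow form of the ETS core, and the shorter GGAA, on either strand, also lies in the Tuba8 and Clec4e windows. ETS factors are transcription factors, some of which ERK phosphorylates. Among all 32851 promoters of the table the ETS core occurred in 29.9%, the AP-1 site in 7.81%, the cAMP response element in 1.79%, the CCAAT box in 37.4% and the TATA box in 13.6%. Of the 27 genes that agreed upwards 20 had a promoter in the table. The ETS core occurred in 10 of these 20, the CCAAT box in 9, the TATA box in 3 and the other motifs in 0.

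**Figure D2:**
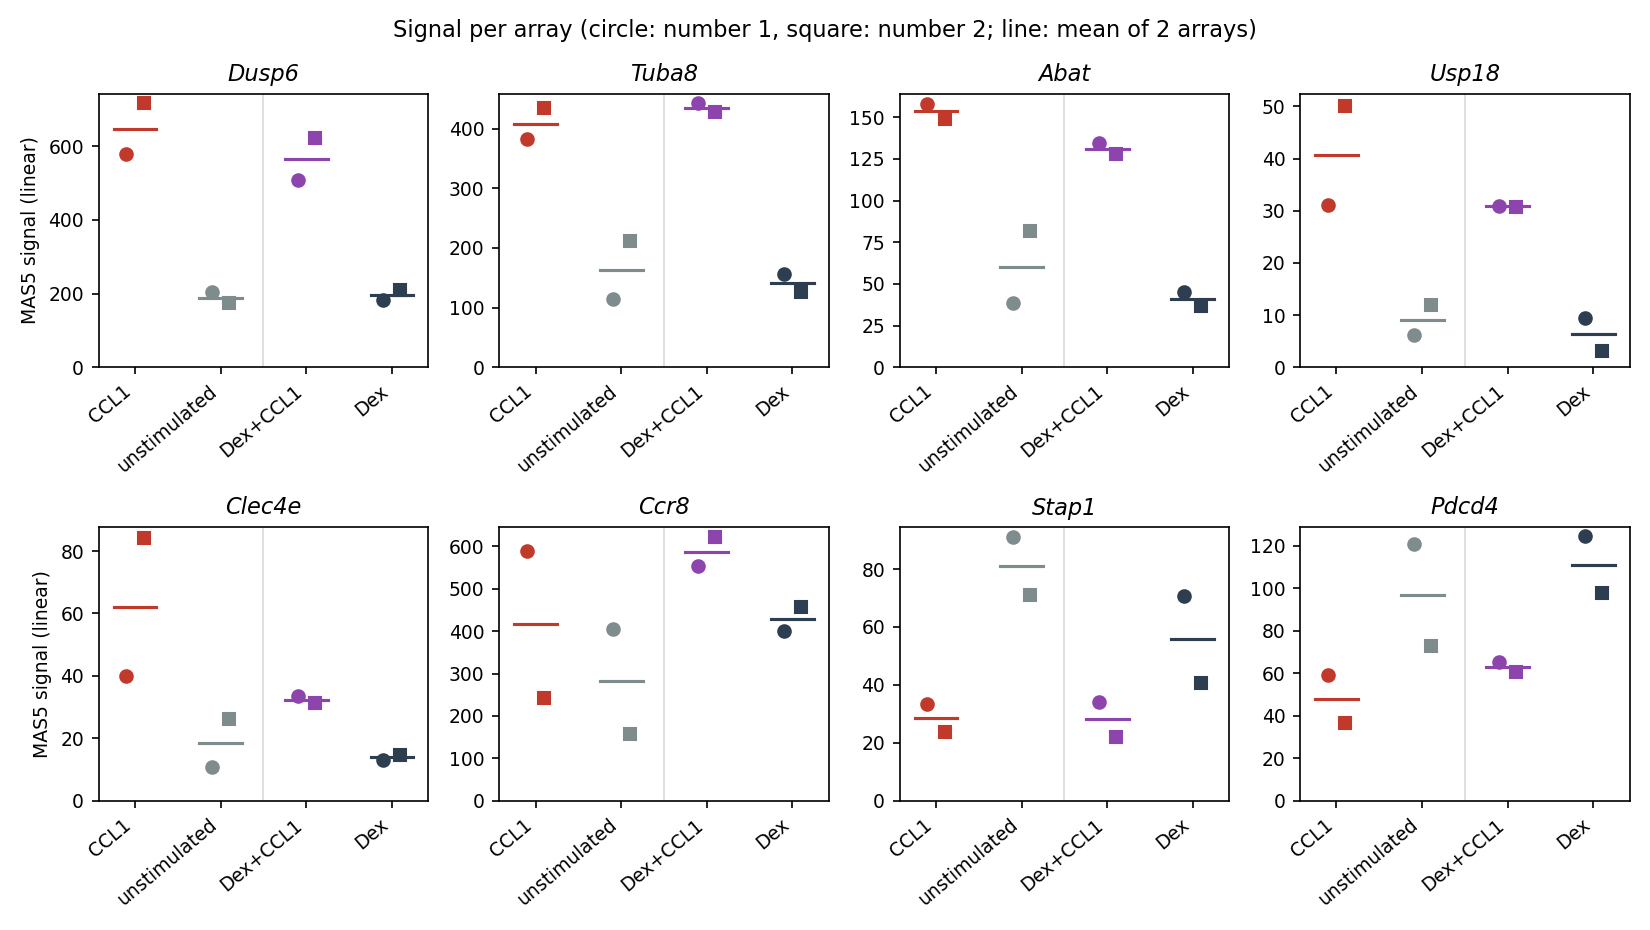
MAS5 signal (vertical axis, linear, starting at 0) of 8 genes in the CCL1, unstimulated, Dex+CCL1 and Dex arrays, with circles for number 1, squares for number 2 and a line at the mean of 2 arrays. Dusp6 lies at 578 and 716 with CCL1 and at 204 and 175 without, and the Ccr8 arrays numbered 2 lie lower than those numbered 1 in both groups without Dex.

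By the number-matched rule, 52 probe sets were higher with CCL1 in both pairs (0.383%) and 126 lower in both (0.928%). The split between the sides depended on the scaling, with 69 higher and 88 lower after quantile normalization and 80 higher and 76 lower after centring each array on its median. In genes, 27 of 7511 were higher with CCL1 in both pairs (0.359%) and 76 were lower in both (1.01%). A further 5 genes passed the size of 0.5 upwards in number 1 and downwards in number 2, and 46 passed it downwards in number 1 and upwards in number 2. The 27 genes made up 13.2% of the 204 genes past that size upwards in number 1 and 8.01% of the 337 in number 2. The 76 genes made up 15.7% of the 484 genes past it downwards in number 1 and 16.6% of the 459 in number 2. At a size of 1, 3 genes remained higher, namely Dusp6, Usp18 and Clec4e, and 1 lower, Stap1. The threshold cut between close values. Tle3 was just inside with 0.65 and 0.50, and Mfng just outside with 0.53 and slightly under 0.50, while on the lower side Zfp644 was just inside with -0.81 and -0.50 and Brdt just outside.

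**Figure D3:**
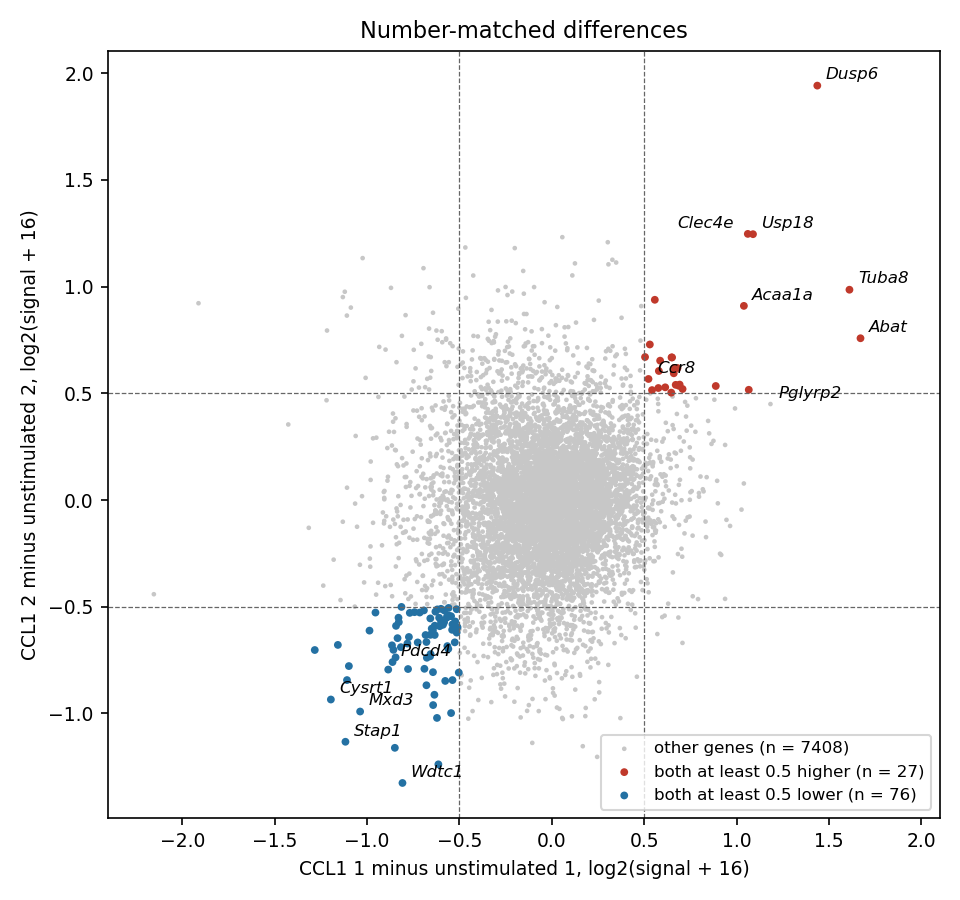
Difference between CCL1 1 and unstimulated 1 (horizontal axis) against that between CCL1 2 and unstimulated 2 (vertical axis), both in log2 of signal + 16, for 7511 genes. Dashed lines mark a size of 0.5, with 27 genes past it upwards in both pairs, led by Dusp6 at 1.44 and 1.94, and 76 genes downwards in both.

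None of the further genes named on the higher side passed the test (limma adjusted p of 0.338 to 0.843). Acaa1a, a peroxisomal thiolase of fatty acid breakdown, had 27.1 and 48.8 with CCL1 and 4.94 and 18.5 without, a difference of 0.97, while its second probe set gave -0.24. Coro1a, an actin-binding protein of leukocytes, had 824 and 870 with CCL1 and 546 and 567 without, a difference of 0.59 (SE 0.14) in arrays that did not overlap. Dok2, an adaptor that recruits a RAS inactivator, had 163 and 169 with CCL1 and 108 and 95.3 without, and Rasal3, a GTPase-activating protein for RAS, had 138 and 143 with CCL1 and 86.6 and 85.2 without. The groups of both genes stood apart, with differences of 0.63 and 0.62. The repair nuclease gene Dclre1a had a difference of 0.66 and a second probe set at 0.58, and the exonuclease gene Aen, a p53 target, had 0.63 and 0.62. Slc16a6, of the monocarboxylate transporter family, had 0.64, and Slc20a1, a sodium-dependent phosphate transporter, had 0.57 with a second probe set at -0.25. Map4k4, a kinase upstream of stress-activated kinases, had 0.66, and its other probe sets had -0.06 and -0.32. Donson, a protein of the replication fork, had 0.65. Atp8b2, a flippase of membrane lipids, had 0.62, Lemd2, of the inner nuclear membrane, 0.61, and the scaffold gene Mpp4 0.61. Smim27 and Tex9 had 0.75 and 0.71. Tle3, a corepressor of the Groucho family, completed the 27 with Ccr8, Itgb2, Bms1, Rps27, Dkkl1 and Tes. The signal of Tle3 was 282 and 293 with CCL1 and 174 and 202 without, and its 3 probe sets gave 0.58, 0.72 and 0.73. Over the 20 named genes on the higher side, 7 had other probe sets, of which 4 were positive and 4 negative.

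None of the 76 genes on the lower side passed the test. Stap1, an adaptor of tyrosine kinase signalling, had 33.4 and 23.7 with CCL1 and 91.1 and 71.1 without. The groups stood well apart and the pairs gave -1.12 and -1.13, with a mean of -1.12 (SE 0.20, limma adjusted p = 0.271). Pdcd4, which blocks the helicase needed to start translation, had 59.2 and 36.4 with CCL1 and 121 and 72.6 without, a difference of -0.81 (SE 0.20, adjusted p = 0.469). Mrpl33, a protein of the mitochondrial ribosome, had 199 and 189 with CCL1 and 354 and 311 without, a difference of -0.73 (SE 0.13, adjusted p = 0.271). Cdkn1b, the cyclin-dependent kinase inhibitor p27, had 18.1 and 21.2 with CCL1 and 57.0 and 47.8 without, a difference of -0.94, but its second probe set gave 0.07. Trp53inp1, a p53-induced stress protein, had 53.7 and 9.95 with CCL1 and 134 and 30.6 without, a difference of -0.98 in groups that overlapped. Mxd3, a partner of MAX in the MYC network, had 41.5 and 28.6 with CCL1 and 102 and 72.6 without, a difference of -1.01, while its other probe sets were at -0.08 and -0.15.

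Also on the lower side, the transketolase-like gene Tktl1 had -1.01 and a second probe set at -0.67, and Snrnp40, of the spliceosome, had -0.99 with a second one at 0.18. Pcm1, of the centriolar satellites, had -0.92, and its 4 other probe sets lay between -0.34 and -0.25. Wdtc1, a substrate adaptor of a ubiquitin ligase, had -1.07, and Cysrt1 also -1.07. The remaining genes lay between -0.71 and -0.84, namely Mpp7 (a scaffold protein), Rasl10a (a small GTPase of the RAS superfamily), Zfp703 (a zinc finger protein), Prodh (proline dehydrogenase), Sema3f (a secreted guidance cue), Bbip1 (a subunit of the ciliary BBSome), Cd160 (a receptor of cytotoxic lymphocytes), Trim59 (of the tripartite motif family) and Lcorl. In 8 of the 20 both CCL1 arrays were under a signal of 16, and in 7 all 4 arrays were under 32. Mean signals under 32 were found in 33 of the 76 genes on the lower side, in 7 of the 27 on the higher side and in 1908 of all 7511.

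Ccr8, the receptor of CCL1, was measured in every array and agreed upwards without passing the test. Its signal was 590 and 243 in CCL1 1 and 2, against 405 and 159 in unstimulated 1 and 2. The groups overlapped because both arrays numbered 2 were lower, while both pairs gave similar differences, 0.52 and 0.57, with a mean of 0.55 (SE 0.15, limma adjusted p = 0.508). Il9r, the IL-9 receptor, had 3.13 and 12.6 with CCL1 and 15.3 and 7.85 without, a difference of -0.22, and Nr3c1, the glucocorticoid receptor, had 283 and 112 with CCL1 and 228 and 156 without, a difference of -0.07. These probe sets of Il9r and Nr3c1 moved in opposite ways in the 2 pairs. Of the other probe sets of Nr3c1, 1 did so as well (0.48 and -0.49), and the other gave -0.50 and -0.58, with a mean of -0.54 (SE 0.28, adjusted p = 0.855). The probe set of Ccl1 itself had signals of 5.43 and 11.4 with CCL1 and 11.7 and 6.16 without, in overlapping groups.

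Other genes of these pathways were counted in lists beside the same counts over all 7511 genes, of which 47.2% were positive with a median of -0.02. Centring each array on its median raised every difference by 0.05, which turned the sign of the median of 4 lists whose median lay between -0.05 and 0, among them pro-apoptotic and Gi protein genes. Among 18 measured MAPK immediate-early and feedback genes, 13 were positive, the median was 0.14, and Dusp6 was the 1 member that agreed or passed the test. None of the others passed the test. Dusp1, a nuclear MAP kinase phosphatase, was at -0.19, Dusp2, another nuclear one, at 0.12, Dusp7, an ERK phosphatase, at -0.19 and Spry1, a feedback inhibitor of the RAS pathway, at 0.07. These 4 were taken in list order. Apart from Dusp6 the list ran from -0.48 for Ccnd1 to 0.56 for Nr4a1, whose pairs gave 1.04 and 0.08. In the Dex arrays Nr4a1 was higher with CCL1 by 1.21 (limma adjusted p = 0.183). In the RAS-ERK cascade itself 6 of 14 members were positive and 0 agreed. Among 12 chemokine and related receptors 5 were positive, and Ccr8 alone agreed. Ccr4, a receptor of memory and regulatory T cells, was at 0.42, Ccr9, a thymocyte and gut-homing receptor, at 0.24, and Cxcr3, a receptor of effector T cells, at -0.34. Among Gi protein signalling and desensitisation genes 6 of 15 were positive, with medians of -0.05 in number 1 and 0.13 in number 2.

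The lists of cell death and growth held no gene that agreed or passed the test. Agreeing genes named above, such as Aen, Bms1, Pdcd4, Trp53inp1 and Cdkn1b, were not members of these lists. Of 12 anti-apoptotic genes 4 were positive, with a median of -0.07. The survival genes Bcl2l1, Bcl2l2 and Mcl1 were at -0.63, -0.23 and -0.06, none past the test. Of 10 pro-apoptotic genes 4 were positive, with a median of -0.01. Of 19 ribosome biogenesis and MYC target genes 16 were positive with a median of 0.13, and of 14 cholesterol synthesis genes 13 were positive with a median of 0.21. The cholesterol list was uneven between pairs, with a median of 0.34 in number 1 and 0.05 in number 2. Of 14 mitosis genes 3 were positive, with a median of -0.07, but the pairs differed in sign, with medians of 0.06 in number 1 and -0.25 in number 2. Of 16 DNA replication genes 10 were positive, with a median of 0.01. Of 13 interferon response genes 9 were positive with a median of 0.03, and Usp18 alone agreed. Of 8 tubulins 5 were positive, and Tuba8 alone agreed. Their medians were -0.04 in number 1 and 0.08 in number 2. Of 15 genes of JAK-STAT signalling and the response to IL-9, 6 were positive, and of 14 NF-kB genes 8.

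The same treatment was given to cells with Dex, and those 4 arrays were not used to choose the agreeing genes, though all groups shared 1 estimate of the spread. Dusp6 had 509 and 622 in Dex+CCL1 1 and 2, against 183 and 209 in Dex 1 and 2. It rose by 1.45 (SE 0.16, limma adjusted p = 0.0112), with no overlap between groups. Tuba8 had 443 and 427 with Dex+CCL1 and 157 and 127 with Dex, and rose by 1.52 (SE 0.18, adjusted p = 0.0159). These 2 were the only probe sets called of 13575 (0.0147%), and 0 were called lower (0%), while 1507 had an unadjusted p under 0.05. Both calls were lost without Dex+CCL1 1 (adjusted p = 0.150 for each) and without Dex+CCL1 2 (0.489 for each). The count was 680 without Dex 1 and 6 without Dex 2, and Dex 2 had the lowest mean correlation with the other arrays, 0.966, against 0.978 to 0.983. Dusp6 kept its call and Tuba8 lost it without the replicate block (adjusted p = 0.267), which left 1 probe set. Neither passed without the intensity trend (adjusted p = 0.126 for each).

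Most genes that agreed upwards without Dex were also higher with CCL1 in the Dex arrays, and the genes that agreed downwards had both directions there. Of the 27, 23 had a positive difference there (85.2%, against 46.0% of all genes), with a median of 0.50, against -0.02 for all genes. In 20 of the 27 the Dex+CCL1 arrays lay above both Dex arrays, against 12.7% of all genes, and in 8 both pairs reached 0.5, against 0.719%. Of the 76 genes that agreed downwards, 40 had a negative difference (52.6%, against 54.0% of all genes), with a median of -0.08. In 24 of the 76 the Dex+CCL1 arrays lay below both Dex arrays, against 20.8% of all genes, and in 13 both pairs reached -0.5, against 0.985%.

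Abat had 134 and 128 with Dex+CCL1 and 44.8 and 36.8 with Dex, a difference of 1.38 (SE 0.24, limma adjusted p = 0.130). Usp18 had 31.0 and 30.7 with Dex+CCL1 and 9.53 and 3.12 with Dex, a difference of 1.08 (SE 0.20, adjusted p = 0.130). Clec4e had 33.6 and 31.2 with Dex+CCL1 and 13.0 and 14.8 with Dex, a difference of 0.69 (SE 0.19, adjusted p = 0.225). In each of the 3 genes the arrays stood apart as they did without Dex. Coro1a had a difference of 0.78, Tle3 of 0.76 and Ccr8 of 0.44 (553 and 623 with Dex+CCL1, 400 and 456 with Dex). On the lower side Stap1 had -0.68, Pdcd4 -0.68, Bbip1 -0.73, Sema3f -0.73, Prodh -0.66 and Wdtc1 -0.59. None of these differences passed the test.

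Pglyrp2, an amidase that cuts bacterial peptidoglycan, was named with Dusp6, Tuba8 and Abat as a marker of CCL1 treatment from earlier results. Without Dex it had 67.0 and 25.2 with CCL1 and 20.5 and 14.2 unstimulated. The pairs gave 1.18 and 0.45, so that it missed the rule, and the mean was 0.82 (SE 0.27, limma adjusted p = 0.690). With Dex it had 78.5 and 61.2 with Dex+CCL1 and 11.1 and 24.6 with Dex, a difference of 1.36 (SE 0.27, adjusted p = 0.140). The arrays did not overlap in either comparison. Id2, an inhibitor of E protein transcription factors, had 99.6 and 224 with CCL1 and 77.5 and 95.5 unstimulated, a difference of 0.71 (adjusted p = 0.590). With Dex its difference was 1.24 (adjusted p = 0.130). Other probe sets of Id2 gave 0.89 and 0.20 without Dex. The former met the rule, with 0.75 and 1.02 in the pairs, and did not pass the test (adjusted p = 0.731). Tubb2a, a beta-tubulin, had 50.9 and 89.5 with CCL1 and 106 and 128 unstimulated, a difference of -0.66, and with Dex its difference was -1.01 (adjusted p = 0.130). Sytl2, a synaptotagmin-like protein of vesicle transport, had differences of 0.49 without Dex and 1.24 with Dex (adjusted p = 0.130).

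Whether the response to CCL1 differed between cells labelled without and with Dex was tested as an interaction. In the arrays numbered 1 without Dex, glucocorticoid receptor targets were as high as with Dex, so this contrast does not cleanly set absence against presence of a glucocorticoid response. Of 13575 probe sets 0 passed in limma (0% in each direction), and 684 reached an unadjusted p under 0.05, with 679 expected by chance. The difference between the responses, without Dex minus with Dex, was 0.24 for Dusp6 (SE 0.22, adjusted p = 0.885) and -0.22 for Tuba8 (SE 0.25, adjusted p = 0.909). In the pairs numbered 2 alone the differences without and with Dex were 1.94 and 1.51 for Dusp6 and 0.99 and 1.63 for Tuba8. A count of 0 does not show that the responses were alike. The count rose without Dex 1, which left Dex 2 alone in its group, and it did not rise without Dex 2. Dex 2 had the lowest mean correlation with the other arrays (0.966). Donson and Cysrt1 were examples of opposite values, with 0.65 and -1.07 without Dex and -0.57 and 1.15 with Dex.

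**Figure D4:**
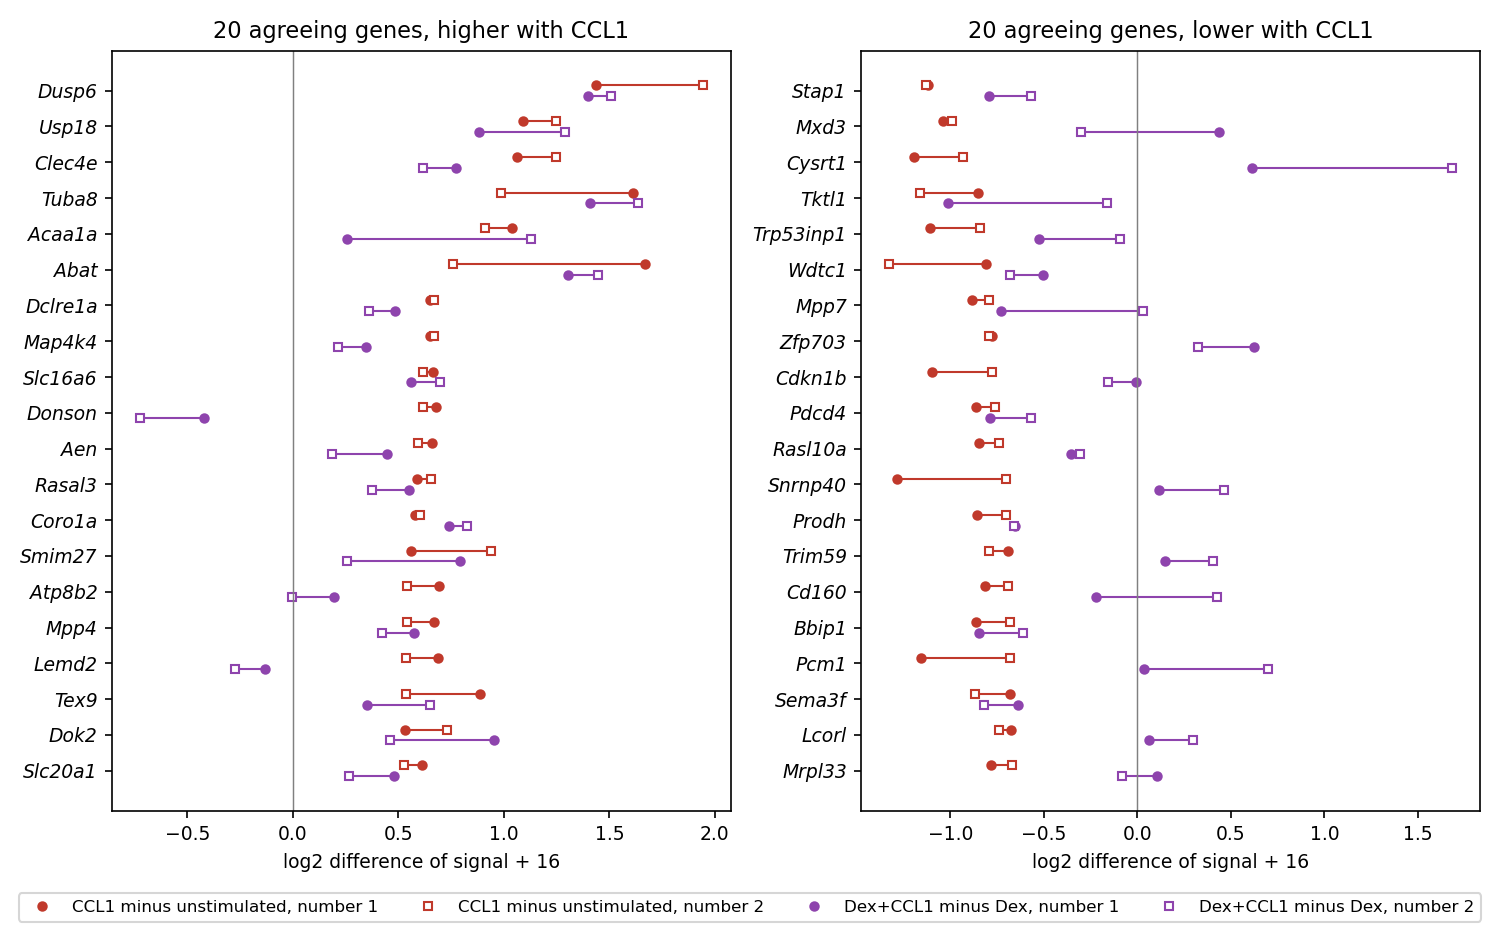
Number-matched log2 differences of signal + 16 (horizontal axis) for the 20 largest agreeing genes in each direction, red without Dex (CCL1 minus unstimulated) and purple with Dex (Dex+CCL1 minus Dex), filled for number 1 and open for number 2. The differences without Dex chose the genes, and with Dex 18 of the 20 genes on the left kept a positive mean difference and 11 of the 20 on the right a negative one.

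CCL1 was set directly against IL-9, a T cell cytokine that signals through JAK kinases and STAT factors, in the arrays without Dex. This contrast shares the CCL1 arrays with the comparison above and uses no control array. It called 8 genes higher with CCL1 and 8 lower (0.107% of genes each). Dusp6 was higher by 2.06 (SE 0.16, limma adjusted p = 8.15e-05), with 578 and 716 with CCL1 and 141 and 143 with IL-9. Tuba8 was higher by 1.42 (adjusted p = 0.00643), with 384 and 434 with CCL1 and 135 and 151 with IL-9, and Abat by 1.58 (adjusted p = 0.0241), with 158 and 149 with CCL1 and 39.5 and 41.8 with IL-9. Groups did not overlap in these 3 genes. Ccr8 was higher by 1.12 (adjusted p = 0.00789), although its arrays overlapped (590 and 243 with CCL1, 306 and 86.9 with IL-9), and Tle3 by 0.83 (adjusted p = 0.0476). These 5 were members of the 27 genes that agreed upwards, and 0 of the 76 that agreed downwards passed. The 27 were chosen for high values in the same 2 CCL1 arrays, so this overlap is no separate support. Without the replicate block Dusp6 kept its call, while Tuba8 (limma adjusted p = 0.0854), Abat (0.0547), Ccr8 (0.99997) and Tle3 (0.299) lost theirs. With 1 block common to the arrays without and with Dex, Tuba8 (0.0621), Ccr8 (0.790) and Tle3 (0.0767) lost theirs too. Ccr9 was higher by 1.91, with 278 and 338 with CCL1, 57.7 and 84.6 with IL-9 and 262 and 253 unstimulated. Sytl2 and Popdc3, a membrane protein of the Popeye family, completed the higher genes, with 1.27 and 0.94 (limma adjusted p = 0.0356 and 0.0485). Both lost their calls without the filter on low signals (0.0947 and 0.102) and without the replicate block (0.101 and 0.940).

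None of the 8 genes lower with CCL1 than with IL-9 passed the test between CCL1 and unstimulated cells. Bcl3, an atypical IkB protein, had 8.31 and 5.28 with CCL1, 159 and 158 with IL-9 and 6.08 and 5.33 unstimulated, a difference between CCL1 and IL-9 of -2.94. Gzma, the granule protease granzyme A, had 20.2 and 11.99 with CCL1, 170 and 192 with IL-9 and 20.8 and 26.9 unstimulated, a difference of -2.63. The others were Ndrg3 (-2.08), the kinase Sgk1 (-1.71), Ptger4 (-1.38), a receptor of prostaglandin E2, Socs1 (-1.23), an inhibitor of JAK kinases, Arid5a (-1.16), an RNA-binding protein, and the transcription factor Stat3 (-1.09). Ptger4 had 152 and 174 with CCL1, 477 and 423 with IL-9 and 272 and 246 unstimulated, and was thus below both in the CCL1 arrays, with a difference from unstimulated cells of -0.62 (limma adjusted p = 0.469). In probe sets 20 were called (0.0810% higher and 0.0663% lower), and 3 to 7 without any 1 of the CCL1 or IL-9 arrays, namely 4 and 5 without CCL1 1 and 2, and 3 and 7 without IL-9 1 and 2. The count was 13 without either Dex+CCL1 array, 35 without either Dex array and 8 without the replicate block. Dusp6 kept its call without any 1 of the 12 arrays (adjusted p of at most 0.00981).

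**Figure D5:**
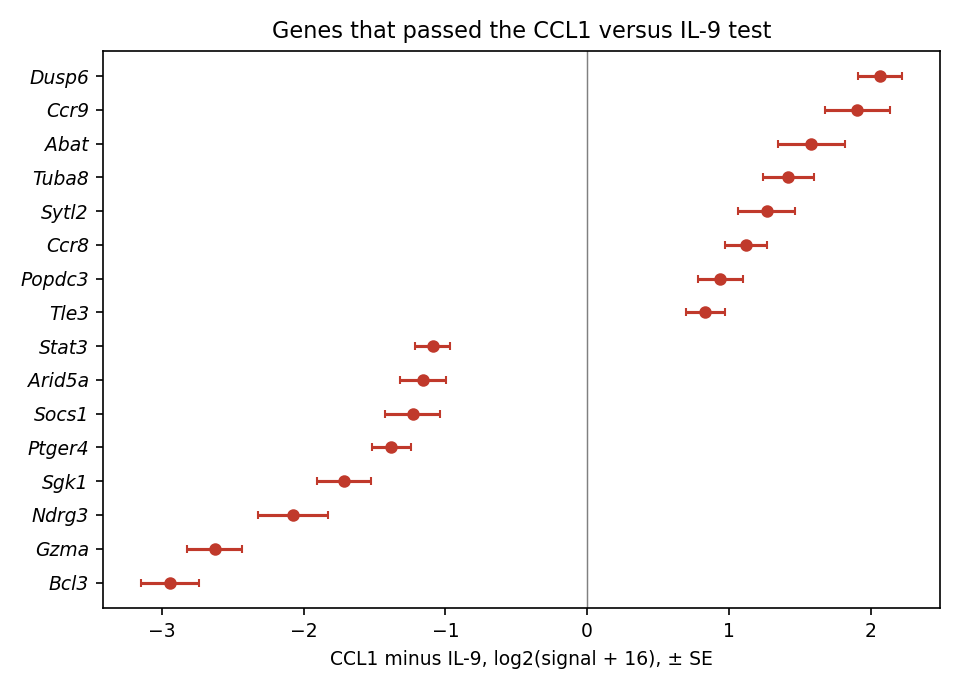
Difference between CCL1 and IL-9 in the arrays without Dex (horizontal axis, log2 of signal + 16) for the 16 genes that passed the test, with bars for 1 SE. Dusp6 lies highest at 2.06 and Bcl3 lowest at -2.94.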

How the data were processed

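Gene expression was measured in 12 samples of total RNA from BW5147 cells, 2 in each of 6 groups. The deposited values were linear signal intensities computed with MAS5 (per the submitters' processing notes), in 2 tables of 11 arrays and 1 array. The trimmed mean signal (2% at each end) was about 100.0 in every array, which hides any shift common to all genes. The MAS5 version is not given in the sources used here. Both tables held the same probe sets with the same gene names, and were joined by probe set.

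After removal of 64 control probe sets, log2(signal + 16) was computed for 22626 probe sets, and the 13575 above the 40th percentile of mean level (a signal of 6.42) were kept. Of all 22690, 20393 had 1 gene symbol, 691 several and 1606 none. Identifiers of 20364 matched the GRCm38.p6 gene table, which changed 0 symbols. A gene was represented by its probe set with the highest mean.

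Differences were tested with limma 3.58.1 under R 4.3.3, in 1 fit over all 12 arrays, with 1 mean per group, the array number as a block separately in the arrays without and with Dex, an intensity trend and Benjamini-Hochberg adjustment at 0.05 (4 residual and 7.85 prior degrees of freedom). The number pairs the arrays in the comparison's rule. Deviations of same-numbered arrays correlated in the 3 group pairs without Dex (0.181 to 0.349) and in the 3 with Dex (0.182 to 0.305). Pairs of a group without and a group with Dex ran from -0.00626 (IL-9 and Dex+CCL1) to 0.233 (CCL1 and Dex+CCL1). The latter was above the 0.181 of CCL1 and unstimulated cells. Replicates shared 0 identical signals and differed by a median of 0.168 to 0.258 log2. The number of arrays limits the precision.

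Genes named were those past the threshold, the 20 agreeing genes in each direction with the largest smaller difference, Ccr8, Il9r, Nr3c1, the 4 marker genes, up to 4 further members of a list in list order, and the 5 with the smallest p where fewer than 5 passed. Fkbp5, Ccl1, Cd3g, Lat, Nr4a1, Ccnd1 and the genes beside the agreement size are descriptions. Members, the 22 lists and tests were chosen with earlier results of these data known. Alternatives were pseudocounts of 1 and 64, other filters, quantile normalization, median centring, no intensity trend, no or a common replicate block, each array left out, 1 probe set per gene, the 6 arrays without Dex alone, other sizes of agreement and, chosen after seeing the data, each number alone.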

Additional observations from a re-analysis of the deposited data

Results flagged for a closer look

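For 11 of the named genes, at the probe set that stands for the gene, both pairs labelled without Dex moved one way and both pairs with Dex the other way. Of the 20 genes named on the lower side, 6 had both Dex pairs positive, against 1801 of all 7511 genes. Of the 20 named on the higher side, 2 had both Dex pairs negative, against 2354 of all 7511. Armcx2, Cpeb4 and Ddr2 were named by the p of the interaction itself, so their opposite values carry no separate weight. The value given is the response to CCL1 without Dex minus that with Dex, in log2, and the test of this difference (limma, interaction) passed for none of them. It was -2.21 for Cysrt1 (adjusted p = 0.572), whose pairs gave -1.20 and -0.93 without Dex and 0.61 and 1.68 with Dex. The adjusted p was 0.861 for each of the others. On the side lower without Dex were Armcx2 at -1.48, Cpeb4, a regulator of mRNA polyadenylation, at -1.37, Pcm1 and Snrnp40 both at -1.28, Zfp703 at -1.26, Ddr2, a collagen receptor kinase, at -1.11, Trim59 at -1.01 and Lcorl at -0.89. On the side higher without Dex were Donson at 1.22 and Lemd2 at 0.82. In the arrays numbered 1 without Dex, glucocorticoid receptor targets were as high as with Dex, which limits what a difference between without and with Dex means. Other probe sets differed. The second one of Cpeb4 gave 0.20 and -0.17 without Dex, and the second one of Snrnp40 gave 0.16 and 0.21 without Dex and a mean of 0.04 with Dex. The 4 others of Pcm1 had means of -0.34 to -0.25 without Dex and -0.05 to 0.38 with Dex. Cysrt1 had signals of 4.74 and 5.75 with CCL1, against 31.5 and 25.6 in unstimulated cells. Without Dex 1 the difference passed for Cysrt1 (-2.52), Pcm1 (-1.71), Cpeb4 (-1.66), Snrnp40 (-1.53) and Ddr2 (-1.41), a setting in which 429 probe sets passed in all and the array Dex 2 stood alone in its group.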

How the results depend on the processing

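Of 123 results for single genes, 112 kept their direction under every alternative run. This count was partly set by the design. The agreeing genes were chosen for the same sign in both pairs. Leaving out an array of another group did not change a difference between CCL1 and unstimulated cells, as for Dusp6 at 1.69. The count of probe sets that agreed, 178, was 672 and 19 with pseudocounts of 1 and 64, 105 with a filter at the 60th percentile, 103 with 1 probe set per gene, 853 at a size of 0.3 and 4 at a size of 1. Probe sets called between CCL1 and unstimulated cells, 1 as reported, were 2 with a pseudocount of 64, median centring, 1 probe set per gene or the 6 arrays without Dex alone, and 0 in either number alone, and 0 to 2 with 1 array left out. Tuba8 was called in these 4 settings (adjusted p of 0.0229 to 0.0483) and without Dex 1 or Dex 2 (0.0224 and 0.0236). Dusp6 had 1.44 in number 1 alone (adjusted p = 0.331) and 1.94 in number 2 alone (adjusted p = 0.153), and 1.49 to 1.89 with 1 array left out. Within Dex the 2 calls became 0 without the intensity trend, and 0 to 680 with 1 array left out. The interaction count ranged from 0 to 429 with 1 array left out. CCL1 against IL-9 had 20 calls, 12 without the filter, 31 in the 6 arrays without Dex alone and 3 to 35 with 1 array left out.

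Without the replicate block, 1 probe set was called between CCL1 and unstimulated cells, as with it, 1 within Dex, 0 in the interaction and 8 between CCL1 and IL-9. With a common replicate block these counts were 1, 1, 0 and 13. The 1 call between CCL1 and unstimulated cells was Dusp6 as reported, without the block and with a common block (limma adjusted p = 0.00222, 0.00260 and 0.00174).

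Directions turned for 11 differences, none of them past the test, with sizes of 0.06 to 0.53 as reported, the largest being Smim27 within Dex. In number 2 alone the values were 0.26 for Il9r, 0.0443 for Dusp1, 0.13 for Mcl1 and -0.0333 for Spry1, and in number 1 alone 0.29 for Nr3c1 and 0.0538 for Dusp7. With 1 array left out the ranges were -0.67 to 0.22 for Il9r, -0.34 to 0.21 for Nr3c1, -0.72 to 0.0416 for Cxcr3, -0.46 to 0.0844 for Dusp1, -0.39 to 0.0045 for Dusp7, -0.25 to 0.14 for Mcl1 and -0.17 to 0.31 for Spry1. Within Dex they were -0.0503 to 0.24 for Atp8b2, -0.0061 to 0.57 for Map4k4 and -0.0105 to 1.06 for Smim27, and for the interaction of Tuba8 -0.54 to 0.10. The cause was not tested. With 2 arrays a group, 1 of CCL1 on another array type, differences under about the spread between numbers could not be told from it, and low signals limited the genes on the lower side.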
